A study of Rattus norvegicus with 10 samples.

Results

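The Npas1, Adarb2 and Htr3a interneuron nuclei were 355 of 55401 nuclei kept from the dentate gyrus of 4 rats, measured by single-nucleus RNA-seq (snRNA-seq). They were chosen by a gate on unique molecular identifier (UMI) counts: a nucleus with at least 500 UMIs and at most 5% mitochondrial UMIs was selected when Gad1 plus Gad2 reached 4 UMIs, Sst stayed at 0 or 1, and Npas1 plus Adarb2 plus Htr3a reached 3. Adarb2 alone reached 3 UMIs in 345 of the 355, so they are called Adarb2 nuclei here. The 4 rats were male adult Sprague-Dawley rats: 2 had a craniectomy followed by lateral fluid percussion injury (LFPI), a pulse of fluid onto the intact dura that gives a traumatic brain injury (TBI), 1 was a sham rat with all of the surgery and no pulse, and 1 was a naïve rat with no surgery. The dentate gyrus of the injured side was taken 3 weeks after the pulse or sham procedure, each rat was 1 library, and all 4 libraries carry 1 batch label. As in the study, the sham and the naïve rat together formed the control, so a surgical effect and a rat effect cannot be told apart within it. The bulk RNA-seq of the same study covered the dentate gyrus of other male Sprague-Dawley rats at 3 weeks, 3 TBI and 3 sham. Where 4 values follow each other below they belong to TBI rat 1, TBI rat 2, the sham rat and the naïve rat, in that order.

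GABAergic interneurons of the hippocampus come mostly from the medial and the caudal ganglionic eminence of the embryonic brain. Cells of caudal origin carry the RNA editing family member Adarb2, the transcription factor Npas1 and the ionotropic serotonin receptor Htr3a in varying combination, and include basket cells that contain cholecystokinin (Cck) and the cannabinoid receptor CB1 (Cnr1), cells with vasoactive intestinal peptide (Vip), and cells that secrete the matrix protein reelin (Reln). Cells of medial origin depend on the transcription factor Lhx6 and include the somatostatin (Sst) and parvalbumin cells. In the dentate gyrus, CB1 on the axon terminals of Cck basket cells lowers GABA release onto granule cells.

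The Adarb2 nuclei numbered 65 of 12526 nuclei in TBI rat 1, 89 of 14574 in TBI rat 2, 87 of 16936 in the sham rat and 114 of 11365 in the naïve rat. Their summed counts were 529441, 257639, 303935 and 980777 UMIs, and their median depths 4102, 2654, 3171 and 4595 UMIs in the same order. A pair of libraries, 1 from each group, stood apart: 12 Adarb2 nuclei of TBI rat 1 and 21 of the naïve rat held more than 10000 UMIs, against 0 in TBI rat 2 and in the sham rat. These 33 nuclei were 18.5% and 18.4% of their rats' Adarb2 nuclei but 58.3% and 58.6% of the UMIs. They were poor in the genes of the gate and rich in those of astrocytes: Adarb2 stood at 463 and 548 counts per 1000000 UMIs (CPM) against 2871 and 3336 in the shallower Adarb2 nuclei of the same rats, and the sum of Slc1a3, Aqp4 and Gja1 at 1076 and 2085 CPM against 204 and 108. Many of the values below are therefore also given without them. Between 46 and 64 barcodes were shared by any pair of libraries, and 0 among the Adarb2 nuclei.

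At least 3 UMIs of another cell class were found in 30, 16, 13 and 50 of the Adarb2 nuclei of the 4 rats, which is 46.2%, 18.0%, 14.9% and 43.9%. Of these, 17, 1, 3 and 17 held 3 or more UMIs of Slc17a7, the vesicular glutamate transporter of granule cells. The count for Pdgfra and Vcan was 15, 12, 5 and 34. Vcan was also higher in the summed Adarb2 nuclei than in other GABAergic nuclei, as given below. Whether its UMIs came from mixed nuclei was not tested. No doublet caller was run, and the part of mixed nuclei in the results was not tested beyond the fits that leave them out.

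The deposited matrices also list entries whose value is 0, which made up 2.43%, 32.0%, 13.1% and 20.2% of the entries of the Adarb2 nuclei. The sources used here do not say how these zeros arose. They were uneven between genes: of the entries for Apoe, 7.14, 100, 75 and 82.5% were 0, and of those for Hspa5 3.70, 79.2, 42.1 and 12.9%. For the genes that describe these nuclei they were fewer, 2.04, 1.59, 0 and 7.89% for Reln, 0, 7.04, 4.84 and 6.86% for Cnr1, 4.76, 20.8, 0 and 20% for Cck and 0% in every rat for Adarb2. For Sst they were 0, 100, 100 and 90% of the 2, 3, 1 and 10 entries, so the upper limit of the gate on Sst was read after those zeros.

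**Figure D1:**
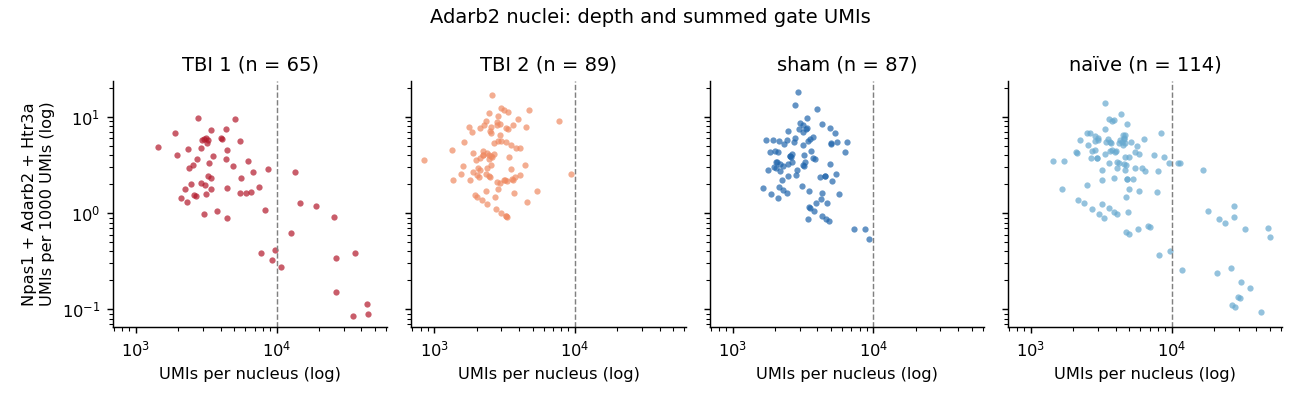
Each point is 1 Adarb2 nucleus, with its UMIs on the horizontal axis and its Npas1, Adarb2 and Htr3a UMIs per 1000 UMIs on the vertical axis, both on log scales, 1 panel per rat. The dashed line marks 10000 UMIs, beyond which lie 12 nuclei of TBI rat 1 and 21 of the naïve rat, most of them with few gate UMIs for their depth.

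The values that chose the nuclei are given as a description. Adarb2 supplied most of the gate: it was detected in 100, 100, 100 and 96.5% of the Adarb2 nuclei of the 4 rats, Npas1 in 38.5, 43.8, 28.7 and 63.2% and Htr3a in 7.69, 14.6, 6.90 and 14.04%. Summed over the nuclei, Adarb2 reached 1468, 4367, 3748 and 1701 CPM, and without the nuclei over 10000 UMIs 2871, 4367, 3748 and 3336. The label names 3 genes, and in these nuclei Adarb2 was the one found in nearly all of them, while Htr3a was found in the fewest in every rat. An Adarb2 UMI was not rare outside these nuclei: in nuclei gated as oligodendrocytes, which should lack it, 30.6, 20.6, 33.1 and 32.6% held an Adarb2 UMI at median depths of 1276, 817, 1280 and 1410 UMIs. Near the gate, 7, 11, 4 and 12 Adarb2 nuclei sat exactly at 3 gate UMIs and 21, 13, 14 and 13 nuclei with enough Gad1 and Gad2 sat just under it at 2, while 18, 29, 33 and 17 sat at 4 Gad1 plus Gad2 UMIs and 44, 45, 40 and 25 just under it at 3. The median Adarb2 nucleus held 10, 9, 10 and 15 gate UMIs.

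Reln, Cnr1, Cck and Vip were not used by the gate. Reln was found in 73.8, 69.7, 79.3 and 61.4% of the Adarb2 nuclei, with exact 95% intervals that together ran from 51.8% to 87.3%, against 4.44, 0.29, 4.51 and 0.639% of the oligodendrocyte nuclei. In the classes most like them, other GABAergic and Sst nuclei (their gates are given below), it was found in 49.3, 60.5, 55.6 and 46.04% and in 35, 32, 27.8 and 27.8%. After each nucleus was thinned to 1500 UMIs the shares were 59.4, 67.4, 75.9 and 55.8%, against 42.5, 54.1, 44.2 and 38.1% of the other GABAergic nuclei. Its summed level was 1358, 3963, 3507 and 1479 CPM, and 2626, 3963, 3507 and 2833 CPM without the nuclei over 10000 UMIs. A Reln UMI was thus found in most Adarb2 nuclei of every rat, with the shares of both TBI rats between those of the controls.

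Cnr1 was found in 86.2, 74.2, 67.8 and 83.3% of the Adarb2 nuclei, against 9.44, 3.48, 6.77 and 8.63% of the oligodendrocyte nuclei, and in 60.9, 65.1, 50.6 and 63.7% after thinning. Its summed level was 553, 1665, 701 and 809.6 CPM. The other GABAergic nuclei, which passed the Gad1 and Gad2 minimum but held at most 2 gate UMIs and at most 1 Sst UMI, stood at 54.02, 34.4, 38.6 and 11.01 CPM, so the lowest Adarb2 level was above the highest of theirs. Sst nuclei, with 2 or more Sst UMIs, held 9, 0, 7 and 0 Cnr1 UMIs.

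Cck was found in fewer nuclei, 30.8, 21.3, 11.5 and 31.6%, against 4.44, 0.87, 6.77 and 1.60% of the oligodendrocyte nuclei, and in 18.8, 19.8, 5.75 and 19.5% after thinning. Thinned oligodendrocyte nuclei held a Cck UMI in 1.67, 0, 0 and 2.04%, and the thinned share of the Adarb2 nuclei was lowest in the sham rat. Its summed level was 77.4, 365, 59.2 and 198 CPM, so the rats of each group were far apart. Without the nuclei over 10000 UMIs it was 145, 365, 59.2 and 441 CPM, and Cnr1 was 1096, 1665, 701 and 1619.7 CPM. Vip was rare: 1, 7, 4 and 4 Adarb2 nuclei held a UMI of it, or 1.54, 7.87, 4.60 and 3.51%, against 0, 0, 0 and 0.639% of the oligodendrocyte nuclei, and its level was 7.56, 42.7, 26.3 and 19.4 CPM. A UMI of Reln or Cnr1 was thus found in most of these nuclei, and one of Vip in few.

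**Figure D2:**
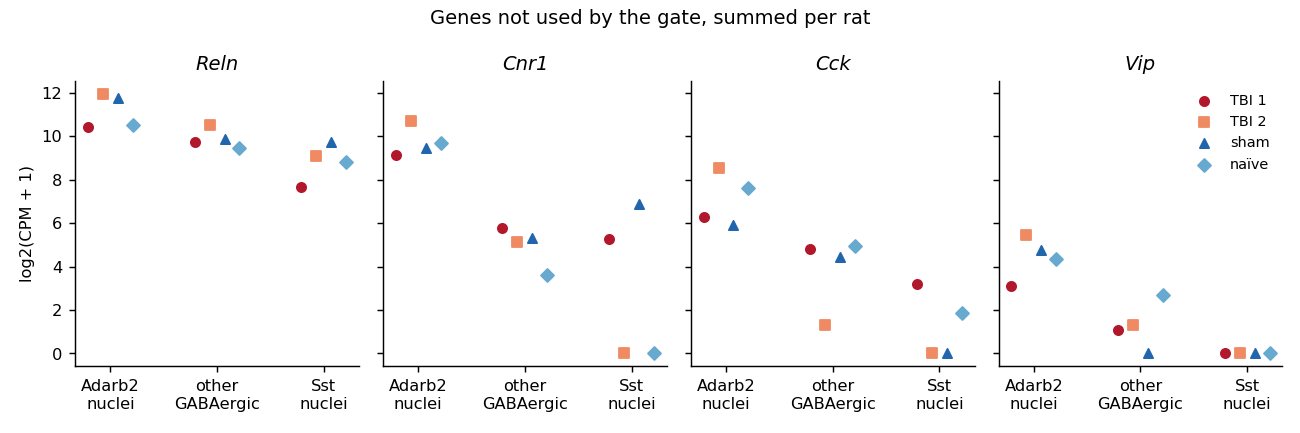
Levels of Reln, Cnr1, Cck and Vip as log2(CPM + 1) in the summed Adarb2 nuclei, other GABAergic nuclei and Sst nuclei, 1 point per rat. For Cnr1 all 4 points of the Adarb2 nuclei lie above all 4 of the other GABAergic nuclei.

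The Adarb2 nuclei were also described by their Reln UMIs. Reln stood at 5 or more UMIs in 35 of 65, 50 of 89, 53 of 87 and 62 of 114 Adarb2 nuclei and at 0 in 17, 27, 18 and 44. Cck was found in 14.3, 2, 5.66 and 20.97% of the nuclei with 5 or more Reln UMIs and in 58.8, 55.6, 33.3 and 47.7% of those with 0, lower among the Reln nuclei in each of the 4 rats. Kit, a receptor tyrosine kinase found in reelin cells, went the other way, at 65.7, 38, 54.7 and 46.8% and 23.5, 7.41, 0 and 25%, the 0 of 18 in the sham rat allowing a share of up to 16.7%. Median depths of the nuclei with and without Reln were 4413 and 3799 UMIs in TBI rat 1, 2519 and 2816 in TBI rat 2, 3242 and 3304 in the sham rat, and 4047 and 4822 in the naïve rat. Cnr1 was common on both sides, in 88.6, 68, 64.2 and 82.3% and 94.1, 88.9, 83.3 and 86.4%, and Npas1 was found in 40, 44, 20.8 and 62.9% and 35.3, 37.04, 44.4 and 63.6% with no common direction. Lamp5, a marker of neurogliaform cells, was found in 3, 3, 4 and 2 of the nuclei with Reln and in 1, 0, 0 and 0 without it. These splits share cells and counts within a rat, so they are given with no test, and intervals cover counting error only.

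**Figure D3:**
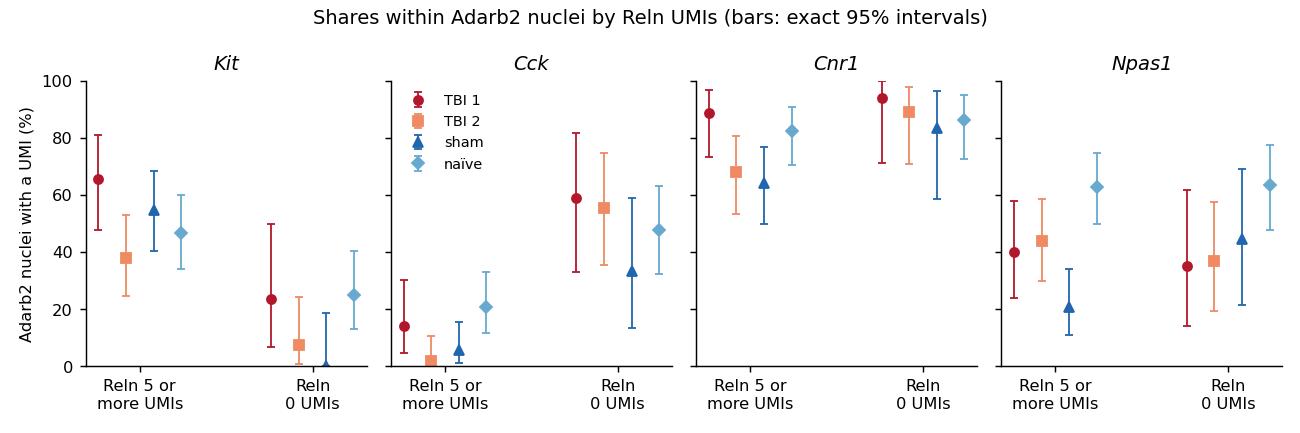
Share of Adarb2 nuclei with a UMI of Kit, Cck, Cnr1 or Npas1, in percent, among nuclei with 5 or more Reln UMIs and among those with 0, 1 point per rat with exact 95% intervals. Kit is higher and Cck lower on the Reln side in all 4 rats.

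Whether Adarb2 nuclei were fewer after injury was asked over rats, with nuclei as counts within a rat. In the 2 TBI rats, the sham rat and the naïve rat in turn, they made up 0.519%, 0.611%, 0.514% and 1.003% of all nuclei kept, so the groups overlapped (difference in means of -0.194 percentage points, two-sided exact permutation p = 1.0). Of the nuclei with 4 or more Gad1 plus Gad2 UMIs, they made up 20.2%, 24.1%, 29.6% and 28.9%, with exact 95% intervals of 15.9% to 25.0%, 19.8% to 28.7%, 24.4% to 35.2% and 24.4% to 33.6%. Here the groups did not overlap, with means of 22.1% and 29.2% and a difference of -7.11 percentage points, and the exact permutation test gave p = 0.333, the smallest that 2 rats against 2 allow. Leaving out nuclei with 3 or more UMIs of another class gave 14.8%, 22.3%, 28.9% and 21.2%, where the groups overlapped (p = 0.667 by the same exact test), and leaving out those over 10000 UMIs gave 18.1%, 24.2%, 29.9% and 26.1%, where the groups did not overlap (exact p = 0.333). Thinned to 1500 UMIs before the gate, where a nucleus needs the same number of UMIs from a smaller total, the shares were 16.7%, 13.7%, 19.4% and 16.9%, a difference of -2.99 percentage points (exact p = 0.333).

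The other GABAergic nuclei of the same rats numbered 217, 256, 189 and 202. Against them, the Adarb2 nuclei were higher in the cannabinoid receptor Cnr1 and the phosphodiesterase Pde3a. They were lower in the nitric oxide synthase Nos1, the receptor tyrosine phosphatase Ptprt and the AMPA receptor subunit Gria1. Both kinds of nuclei were sorted by the 6 gate genes, so genes that go with Adarb2 from nucleus to nucleus had to differ, and the fit over rats gives which ones and by how much; the other GABAergic nuclei may also hold shallower nuclei of the same type. With the rat as a block, edgeR's quasi-likelihood test called 209 of 7835 genes higher in the Adarb2 nuclei, or 2.67%, and 206 lower, or 2.63%, at a Benjamini-Hochberg adjusted p under 0.05. Without the naïve rat 92 and 95 genes were called, and without TBI rat 1 169 and 114. The counts were 310 (4.5%) and 286 (4.15%) of 6885 genes without the nuclei over 10000 UMIs, and 353 of the 415 calls remained. With nuclei that held 3 or more UMIs of another class left out they were 242 (3.98%) and 245 (4.03%) of 6077, and 321 of the 415 remained. Cnr1 had the largest log2 fold change (Log2FC) of the 10 genes of smallest p on the high side, 4.72 (SE 0.29, edgeR adjusted p 1.47e-08), which is 5.24 without the nuclei over 10000 UMIs.

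Syt6, a synaptotagmin, stood at 168, 322, 313 and 187 CPM in the Adarb2 nuclei and at 22.5, 10.5, 25.7 and 11.01 in the other GABAergic nuclei (Log2FC 3.79, SE 0.22). Chrm5, the M5 muscarinic acetylcholine receptor, stood at 96.3, 85.4, 125 and 78.5 CPM against 6.75, 2.99, 6.43 and 10.1 (Log2FC 3.72). Pde3a, a phosphodiesterase that breaks down cAMP, stood at 808, 1483, 1451 and 1032 CPM against 318, 479, 359 and 390.0 (Log2FC 1.61). In each of these genes every rat's Adarb2 nuclei were above every rat's other GABAergic nuclei. The rest of the 10 were Yjefn3 (Log2FC 3.67), Col19a1, a collagen (1.57), Rgs12, a regulator of G protein signalling (3.30), Stk32b, a kinase (2.21), Rxfp1, the relaxin receptor (2.81), and Sgcd, delta-sarcoglycan (2.38).

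On the low side, Nos1, neuronal nitric oxide synthase, stood at 34.00, 58.2, 46.1 and 25.5 CPM in the Adarb2 nuclei against 155, 228, 187 and 135 in the other GABAergic nuclei (Log2FC -2.15, SE 0.17, edgeR adjusted p 1.83e-07). Ptprt, a receptor tyrosine phosphatase, stood at 236, 462, 447 and 294 CPM against 1454, 1874, 2034 and 1603 (Log2FC -2.30). Gria1, an AMPA receptor subunit, stood at 1241, 1001, 1362 and 1023 CPM against 2827, 3222, 3349.6 and 2243 (Log2FC -1.30). None of the 4 rats overlapped between the classes in these 3 genes. The others of the 10 were Col5a2, a collagen (Log2FC -3.76), Pappa1 (-3.02), Gpc6, a glypican (-1.78), Astn2, an astrotactin (-1.55), Gpr149, an orphan receptor (-2.70), Inpp4b, a phosphoinositide phosphatase (-1.79), and Sel1l3 (-1.48). All 20 genes were chosen among those that went the same way in the 4 rats. They stayed called in every alternative fit that tested them. Leaving out the nuclei over 10000 UMIs gave a Log2FC of 1.90 to 5.24 for the upper 10 and of -5.04 to -1.45 for the lower 10, where Col5a2 had the -5.04.

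**Figure D4:**
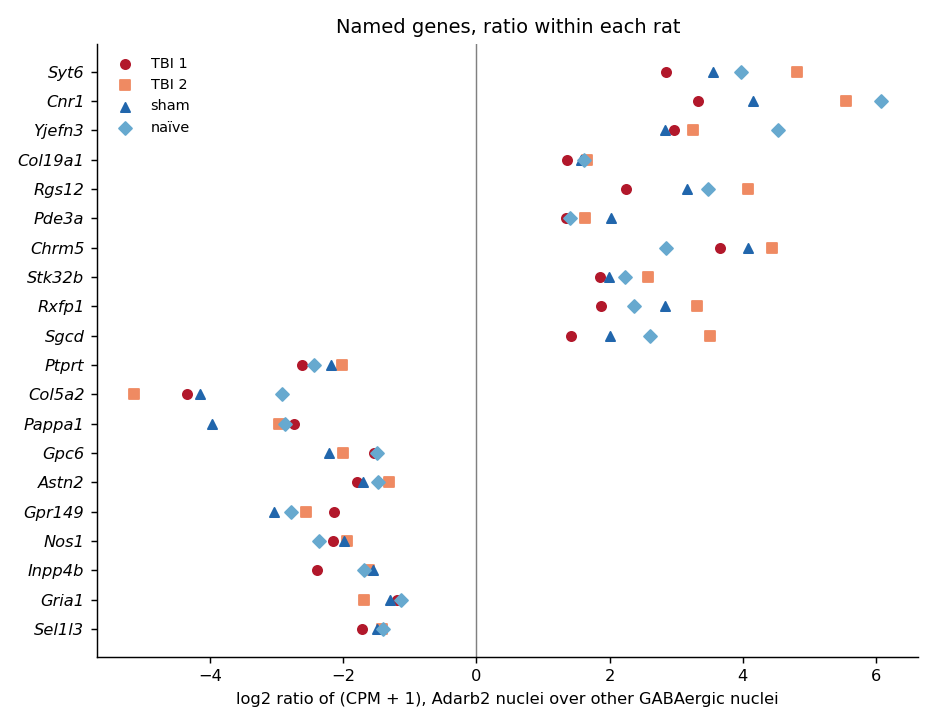
For the 10 genes of smallest p in each direction, the log2 ratio of (CPM + 1) in the Adarb2 nuclei to that in the other GABAergic nuclei of the same rat, 1 point per rat. All points of the upper 10 genes lie right of 0 and all points of the lower 10 left of it, as the choice of these genes required.

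The lists of type markers split. Their counts stand against 2.67% of all genes called higher and 2.63% called lower. Without the nuclei over 10000 UMIs these shares were 4.5% and 4.15%. Of the 10 genes of the Cck and Cnr1 basket list 6 were tested and called higher. A gene could pass the filter on low counts through the Adarb2 nuclei alone, so this count is partly set by the filter: Sncg, Trh and Lypd1 were too low to be tested, with at most 8 UMIs a rat in either class, and Htr3a is a gene of the gate. Beside Cnr1 and Rgs12 the called genes were Cck (77.4, 365, 59.2 and 198 CPM against 27.01, 1.497, 20.9 and 29.4, Log2FC 2.92), the chemokine gene Cxcl14 (Log2FC 2.47), the vesicular glutamate transporter Slc17a8 (1.91) and Tnfaip8l3 (0.82). The filter could also be passed through the other GABAergic nuclei alone, so counts on the low side of these lists are partly set by it too. In the Adarb2 nuclei Lhx6 held 3, 1, 4 and 1 UMIs and Nxph1 3, 0, 0 and 6. The fitted Log2FC of Nxph1 therefore depends on the prior count. Of the list of medial ganglionic eminence genes 0 of 9 had a Log2FC above 0 and 5 were called lower, with a median of -0.78 against -0.00042 over all genes: Lhx6 (Log2FC -3.49), Nxph1 (-3.06), the potassium channel genes Kcnc1 (-0.84) and Kcnc2 (-0.78), and Erbb4, the neuregulin receptor (-0.95). With the nuclei over 10000 UMIs left out 7 of the 9 were called lower, these 5 with Sox6 (-1.41, against -0.17 with them) and Satb1 (-0.76, against -0.50), and 1 was above 0, Elfn1 (0.055), which was not called. The neurogliaform and Reln list went both ways. Reln (Log2FC 1.30, SE 0.15), Kit (1.51) and Cxcl14 were called higher, and Lamp5 (-2.72), Nos1, Gabrd (-1.02), Hapln1 (-0.64) and Fgf13 (-0.59) lower, where Gabrd was not called without the nuclei over 10000 UMIs (Log2FC -0.82, edgeR adjusted p 0.0837) and Id2 was called lower in its place (-2.22, against -0.73 with them), so that 3 and 5 of 9 were called in both fits.

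Of the caudal ganglionic eminence list, 2 of 8 tested genes were called higher and 3 lower, and 2 and 1 without the nuclei over 10000 UMIs. These counts and those of the next lists stand against the 2.67% of all genes called higher and the 2.63% called lower, and against 4.5% and 4.15% where the nuclei over 10000 UMIs were left out. The orphan nuclear receptor Nr2f2 was called higher, at 49.1, 65.98, 92.1 and 91.8 CPM against 45.02, 31.4, 27.3 and 53.2 (Log2FC 0.87), as was Col19a1. Erbb4 and Zfp385d (-0.56) were among those called lower, and Erbb4 was the one still called without those nuclei. Of the endocannabinoid list Cnr1 was the 1 gene called of 8 tested, 4 of which had a Log2FC above 0 and 4 below, with a median of 0.061. Without those nuclei the median was -0.0051 and 2 of 7 were called higher, Cnr1 and Cnrip1, a protein that binds the cannabinoid receptor (1.003). Prox1, also a granule cell gene, had a Log2FC of 0.36 and was not called. Among serotonin and acetylcholine receptors, Htr2c (2.51), Chrna7, the alpha 7 nicotinic subunit (1.16), and Chrm5 were called higher and Htr2a (-1.37) lower, of 5 tested and 24 in the matrix. Chrm5 held 6, 2, 4 and 11 UMIs in the other GABAergic nuclei, and Htr2a 5, 5, 12 and 8 in the Adarb2 nuclei. Each could pass the filter through the class where it was higher, so these counts are partly set by the filter. Among GABA receptor genes 2 of 14 were called higher, Gabrb1 (0.40) and the scaffold Gphn (0.38), and 5 lower, among them Gabrg3 (-1.43), Gabrd, Gabrb2 (-0.73) and Gabbr2 (-0.44). Among ionotropic glutamate receptors 5 of 17 were called lower, Gria1, Grik3 (-0.89), Gria4 (-0.86), Grik1 (-0.64) and Gria3 (-0.52), and Grid1 (0.67) and Grik4 (0.48) higher. Among 25 tested voltage-gated channel genes, 4 were called higher, Kcnq5 (1.24), Kcnd3 (0.78), Kcnq3 (0.66) and Cacna1b (0.59), and 5 lower, among them Cacna1a (-0.90), Kcnc1, Kcnc2 and the sodium channel Scn1a (-0.55). Of 20 tested adhesion genes 2 were called higher, among them the neurexin Nrxn3 (0.91), and 5 lower, Il1rapl2 (-2.79), Cntnap4 (-1.15), Cntn4 (-1.15), Ptprd (-0.90) and Cntnap5c (-0.54). Of the peptide list Cck and Igf1 (0.96) were called higher, and Vcan, a matrix proteoglycan also found in oligodendrocyte precursors, had a Log2FC of 1.09. Leaving out the nuclei over 10000 UMIs gave 3 higher and 1 lower for serotonin and acetylcholine receptors, 2 and 5 for GABA receptors, 3 and 5 of 16 for ionotropic glutamate receptors, 4 and 5 for channels and 3 and 5 for adhesion genes; Gabrd, Grik4 and Cntnap5c were not called there. Genes of the receptor, channel and adhesion lists were named because they were called, after their values were seen. Beside these, all 7 tested astrocyte genes had a Log2FC above 0, with a median of 0.83, and 2 of them were called higher, Slc1a2 (0.77) and Aqp4 (1.21); without the nuclei over 10000 UMIs 3 of 6 had a Log2FC above 0, the median was -0.053, 0 were called higher and Slc1a3 was called lower (-0.88). Without those nuclei the oligodendrocyte gene Mbp (Log2FC 0.76, against 0.46 with them) and Inpp5d, the 1 microglial gene tested (2.06, against 1.06), were called higher, which neither was with them. Genes of other cells could also pass the filter through the class where they were higher, so their counts are partly set by it.

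Against the 162 Sst nuclei, 40, 25, 18 and 79, edgeR called 340 of 5179 genes higher in the Adarb2 nuclei, or 6.56%, and 195 lower, or 3.77%, and without the naïve rat 166 and 124. The counts were 350 (7.38%) and 233 (4.91%) of 4741 without the nuclei over 10000 UMIs, and 416 of the 535 calls remained. With nuclei of 3 or more UMIs of another class left out they were 284 (8.13%) and 210 (6.01%) of 3492, and 367 of the 535 remained. Reln stood at 1358, 3963, 3507 and 1479 CPM in the Adarb2 nuclei and at 199, 534, 851 and 441 in the Sst nuclei (Log2FC 2.38, SE 0.19, edgeR adjusted p 7.75e-08). Dab1, the adaptor that carries the reelin signal inside cells, stood at 989.7, 1219, 1099 and 919.7 CPM against 343, 225, 284 and 137 (Log2FC 2.21). Reln and Dab1 were the 2 of 8 tested reelin genes that were called, while 5 of the 8 had a Log2FC below 0 and the median was -0.061. Without the nuclei over 10000 UMIs, Lrp8, a reelin receptor, was also called, lower (-0.77). Cck (5.29) and Cnr1 (5.12) were again among the 10 genes of smallest p, but Cck was at 0 in the Sst nuclei of TBI rat 2 and the sham rat, and Cnr1 in those of TBI rat 2 and the naïve rat, so their fitted Log2FC depends on the prior count. Pde3a (2.99), the histone deacetylase Hdac9 (2.57), the growth factor receptor Egfr (3.28), Sorcs3 (2.55), Cadps2 (2.58) and Yjefn3 (6.19) made up the rest. Yjefn3 held 1, 0, 0 and 1 UMIs in the Sst nuclei, so its fitted Log2FC depends on the prior count as well.

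On the low side against Sst nuclei, Il1rapl2, an interleukin receptor accessory protein of synapses, stood at 32.1, 124, 42.8 and 67.3 CPM against 919, 1531, 1785 and 1074 in the Sst nuclei (Log2FC -4.28). Gria1 stood at 1241, 1001, 1362 and 1023 CPM against 4457, 5786, 5721 and 5283 (Log2FC -2.14). Man1a1 (-3.62), Ptprt (-2.34), Prkcq, protein kinase C theta (-3.60), Gpc6 (-2.25), the homeobox gene Cux2 (-2.65), the kainate receptor subunit Grik3 (-2.78), Ets1 (-3.76) and Pappa1 (-3.43) followed. Lhx6 (-3.68), Satb1 (-2.07), Elfn1 (-2.98) and Kcnc2 (-1.55) of the medial list were called lower, and Erbb4 (1.71) of the same list higher. With 3, 1, 4 and 1 UMIs in the Adarb2 nuclei, Lhx6 could pass the filter on low counts through the Sst nuclei alone.

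Some genes, chosen after their values were seen, were placed between the classes. Erbb4 had a Log2FC of 1.71 against Sst nuclei and -0.95 against other GABAergic nuclei, Gabrg3 1.36 and -1.43, and Gabrb2 0.99 and -0.73, called in both fits. The AMPA subunits Gria1, Gria3 and Gria4 were lower in the Adarb2 nuclei in both, at -2.14, -1.31 and -1.54 against Sst nuclei. Of the GABA receptor list, 11 of 12 tested genes had a Log2FC above 0 against Sst nuclei (median 0.41). Of these 12, 4 were called higher and 0 lower, and 5 and 0 without the nuclei over 10000 UMIs. Of the neurogliaform and Reln list, 5 of 11 genes in the matrix were tested, and 4 were called higher and 0 lower in both fits. Both comparisons use the same Adarb2 nuclei. The list counts of this paragraph stand against 6.56% of all genes called higher and 3.77% called lower, and 7.38% and 4.91% without the nuclei over 10000 UMIs. All 5 tested astrocyte genes were called higher against Sst nuclei (median Log2FC 2.31), against 1 of 3 without the nuclei over 10000 UMIs. Of the oligodendrocyte genes 1 of 3 was called higher (median 1.21), Mbp (1.78), and 2 of 3 without those nuclei (median 1.43). Vcan, the 1 gene tested of the oligodendrocyte precursor list, was called higher with and without them (2.60 and 3.15). A gene could pass the filter on low counts through the Adarb2 nuclei alone, so the list counts of this paragraph are partly set by it.

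The injury comparison asked which genes differed in the Adarb2 nuclei between the 2 TBI rats and the 2 controls. Of 6706 genes tested, 0 (0%) passed an adjusted p of 0.05 by edgeR, where 60 had an unadjusted p under 0.05, and DESeq2 called 0 with 4 under 0.05. Without the nuclei over 10000 UMIs edgeR called 0 (0%) of 5417 with 141 under an unadjusted 0.05, and DESeq2 0 with 11. With the sham rat left out as well, the naïve rat was the only control and was assumed to vary like the TBI rats. The counts of that fit are given with the alternatives below. Both TBI rats were above both controls in 999 genes, 14.9% of those tested, and below in 634, or 9.45%, and without those nuclei in 953 (17.6%) and 631 (11.6%). The genes named next are those of smallest p with both TBI rats above, or both below, both controls, and none passed the adjustment.

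Grm8, a metabotropic glutamate receptor of axon terminals, was at 162, 272, 487 and 364 CPM, both TBI rats below both controls (Log2FC -1.03, SE 0.36). Without the nuclei over 10000 UMIs it was at 217, 272, 487 and 481 CPM (Log2FC -1.04, SE 0.26), an unadjusted edgeR p of 0.0023, the smallest among the 10 genes named on that side in that fit, with an adjusted p of 1.0. Of its entries 3.33, 28.6, 8.11 and 9.26% were listed zeros. Slc16a11, of the monocarboxylate transporter family, was at 15.1, 3.88, 49.4 and 35.7 CPM (Log2FC -2.02), from 1 to 35 UMIs a rat. The other 8 of the lower 10 were Rcn2 (Log2FC -1.25), the chaperone cofactor Hspbp1 (-1.57), Sepsecs (-1.17), Fam204a (-1.19), Aacs (-1.17), Eda (-0.83), Pcdh15 (-1.17) and Eif3c (-1.61). Leaving out the nuclei over 10000 UMIs gave -2.95 for Slc16a11, -0.95 for Rcn2, -1.83 for Hspbp1, -1.63 for Sepsecs, -1.26 for Fam204a, -1.45 for Aacs, -0.68 for Eda, -0.72 for Pcdh15 and -1.09 for Eif3c, where Eda, Pcdh15 and Eif3c had an unadjusted edgeR p of 0.0712, 0.0967 and 0.134.

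On the higher side, Ptprj, a receptor tyrosine phosphatase, was at 293, 322, 191 and 160.1 CPM (Log2FC 0.75, SE 0.27), and Rnf112, a ubiquitin ligase of the nervous system, at 142, 81.5, 32.9 and 47.9 CPM (Log2FC 1.35). Hrh3, the presynaptic histamine receptor, was at 34.00, 50.5, 13.2 and 11.2 CPM (Log2FC 1.70), from 4 to 18 UMIs a rat. Tspan15 (2.52), Sppl2b (1.47), Gnptab (1.21), Shisal1 (1.24), Rhot2 (1.55), Pgs1 (1.36) and Jph3 (1.06) completed the 10. In the fit without the nuclei over 10000 UMIs Tspan15, at 6, 7, 1 and 0 UMIs, was not tested, and the Log2FC was 0.77 for Ptprj, 0.96 for Rnf112, 1.54 for Hrh3, 1.23 for Sppl2b, 1.43 for Gnptab, 1.56 for Shisal1, 1.30 for Rhot2, 1.81 for Pgs1 and 0.55 for Jph3, where Rhot2 and Jph3 had an unadjusted edgeR p of 0.0833 and 0.176. With all Adarb2 nuclei the 20 genes had an unadjusted p from 0.0131 to 0.0331.

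**Figure D5:**
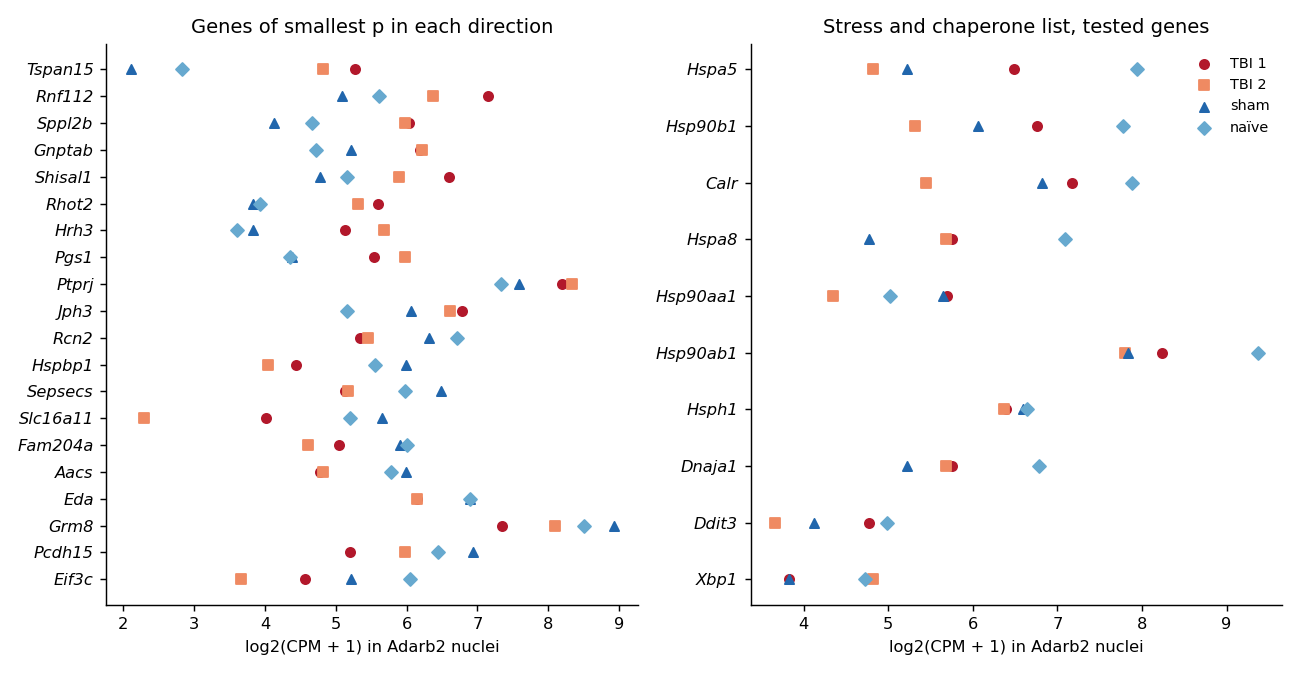
Levels in the Adarb2 nuclei as log2(CPM + 1), 1 point per rat, for the 10 genes of smallest p in each direction (left) and for the 10 tested genes of the stress and chaperone list (right). In the right panel the naïve rat is highest in 8 of 10 genes.

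Of the genes that describe the type, none was called between the TBI rats and the controls: Reln had a Log2FC of 0.070 (SE 0.63), Cnr1 0.50 (SE 0.55), Cck 0.60 (SE 0.84) and Vip -0.020 (SE 0.86), and 0.0022, 0.16, -0.093 and -0.34 without the nuclei over 10000 UMIs. The Cck value moved with the naïve rat: with that rat left out as well as those nuclei, so that the sham rat was the only control and was assumed to vary like the TBI rats, Cck was called higher in the TBI rats (Log2FC 2.11, SE 0.43, edgeR adjusted p 0.00489). Nr2f2 stood below both controls in both TBI rats, at 49.1, 65.98, 92.1 and 91.8 CPM (Log2FC -0.77, unadjusted edgeR p 0.0623), and at 36.2, 65.98, 92.1 and 118 CPM without those nuclei (Log2FC -1.09, unadjusted p 0.0202). Igf1, insulin-like growth factor 1, was at 28.3, 85.4, 138 and 67.3 CPM with the groups overlapping, and at 54.3, 85.4, 138 and 143 without those nuclei, where they did not (Log2FC -1.06). Elfn1, a synaptic adhesion protein, was at 15.1, 42.7, 109 and 41.8 CPM with the groups overlapping (Log2FC -1.46, unadjusted edgeR p 0.0800). Without those nuclei it was at 36.2, 42.7, 109 and 76.4 CPM, where they did not (Log2FC -1.26, unadjusted edgeR p 0.00924). Each of these had an adjusted p of 1.0 by edgeR.

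By list, 0 genes passed in any of the 25 lists. For endocannabinoid signalling 1 of 7 tested genes, the monoacylglycerol lipase Mgll, had both TBI rats above both controls, and the median Log2FC was 0.12. For reelin signalling it was 2 of 9 above, Fyn and Crk, and 1 below, Cdk5, with a median of 0.070. For GABA receptors it was 1 of 13 above, Gabbr2, and 3 below, Gabra3, Gabrg1 and Gphn, with a median of 0.0045, and for ionotropic glutamate receptors 0 of 17 on either side with a median of -0.085. For voltage-gated channels 4 of 24 were above, led by Kcna2 (Log2FC 0.70), with a median of 0.18, and for synaptic adhesion 4 of 19, led by Nlgn2 (0.60) and Nrxn2 (0.57), with a median of -0.0049. The median over all genes was -0.016, and 14.9% of all genes lay above and 9.45% below, which are the shares these counts stand against. The counts above and below without the nuclei over 10000 UMIs were 1 and 0 of 7 for endocannabinoid signalling, 3 and 2 of 9 for reelin signalling, 2 and 3 of 13 for GABA receptors, 1 and 2 of 16 for ionotropic glutamate receptors, 5 and 0 of 23 for channels and 3 and 0 of 19 for adhesion, against 17.6% and 11.6% of all genes. In that fit the groups overlapped for Kcna2 (Log2FC 0.40). The genes behind counts of 5 or fewer were named after their values were seen. Only 3 immediate-early genes of 19 in the matrix passed the filter on low counts.

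The stress and chaperone list had the lowest median of the neuronal lists, -0.75, with 0 of 10 tested genes higher in TBI, and -0.99 with 0 of 8 without the nuclei over 10000 UMIs. Its most abundant gene was Hsp90ab1, at 300.3, 221, 227 and 663 CPM, and the endoplasmic reticulum chaperone Hspa5 was at 88.8, 27.2, 36.2 and 245 CPM. Summed over the 16 genes the level was 982, 586, 698 and 1836 CPM, so the groups overlapped and the naïve rat alone stood high. Of the 10 tested genes 1 had both TBI rats below both controls, Hsph1 at 83.1, 81.5, 95.4 and 98.9 CPM. Without the nuclei over 10000 UMIs Hsp90aa1 did so beside Hsph1, at 13.6, 19.4, 49.4 and 37.0 CPM, where 11.6% of all genes lay below. The naïve rat was also high outside the Adarb2 nuclei: the same sum was 941, 640, 710 and 1657 CPM over all other nuclei that passed the Gad1 and Gad2 minimum, and 934, 946, 689 and 1539 CPM in the nuclei that did not. Listed zeros were most frequent in TBI rat 2 for Hspa5, at 79.2% of the entries, and for Calr, at 64.0%, and their part in the result was not tested. Several of these chaperones have near-identical processed copies in the genome, and whether split reads changed their counts was not tested.

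Markers of other cells moved with single rats too. The 8 astrocyte genes summed to 1925, 314, 632 and 3329 CPM, with Slc4a4 the most abundant, and to 734, 314, 632 and 281 CPM without the nuclei over 10000 UMIs. The 8 oligodendrocyte genes summed to 527, 202, 211 and 413.96 CPM, with Mbp the most abundant, and the 10 microglial genes to 85.0, 66.0, 46.1 and 124 CPM. Their part in the injury values was not tested beyond those fits.

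Whether the injury effect in the Adarb2 nuclei differed from that in the other nuclei that passed the Gad1 and Gad2 minimum, Sst nuclei included, was tested as an interaction. Of 9134 genes 0 (0%) passed by edgeR, with 159 under an unadjusted p of 0.05, and DESeq2 called 0 with 2 under 0.05. The 12 tested stress and chaperone genes had a median interaction of -0.098 on the log2 scale, against -0.014 over all genes, and 0.0088 against 0.0061 without the nuclei over 10000 UMIs. Without the nuclei over 10000 UMIs 3 of 8166 genes (0.0367%) passed, Apoe, Stmn1 and Cst3, each at 0 UMIs in the Adarb2 nuclei of TBI rat 2, where 100% of their entries were listed zeros.

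In bulk dentate gyrus, which mixes all cell types, the genes of the gate and the type did not separate 3 TBI from 3 sham rats. Totals ran from 25121893 to 44649404 estimated counts a sample. Htr3a was at 1.80, 1.82 and 2.99 on the deposited log2 scale in the sham rats and at 2.87, 2.81 and 3.05 in the TBI rats, overlapping, with means of 2.20 ± 0.68 and 2.91 ± 0.13 (SD, 3 rats each) and a difference of 0.70 (SE 0.33, limma adjusted p 0.572). Adarb2 was at 2.81, 3.16 and 3.23 in the sham rats and 2.92, 2.89 and 2.39 in the TBI rats, a difference of -0.33 (SE 0.21). The sham and TBI rats overlapped for both, as they did for Reln (difference -0.063, SE 0.15), Cnr1 (-0.23, SE 0.23), Cck (0.14, SE 0.10), Vip (0.11, SE 0.25), Npas1 (0.10, SE 0.17), Sst (0.066, SE 0.22), Gad1 (-0.19, SE 0.11) and Gad2 (-0.21, SE 0.16). Of 14166 genes limma, run on the deposited filtered log2 values, called 0 (0%), with 1340 under an unadjusted p of 0.05. The study ran DESeq2 on counts for TBI against sham and reported differentially expressed genes, nearly all higher in TBI. Of the microglial list, 9 of 9 tested genes were higher in TBI and 0 lower, with a median difference of 1.17. Of these, 8 had an unadjusted limma p under 0.05. The limma count of 0 therefore does not show that bulk tissue was unchanged. In bulk tissue, fewer cells of a type and less RNA per cell cannot be told apart.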

How the data were processed

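Nuclei of 4 rats were profiled by droplet snRNA-seq on intron and exon reads, 1 library a rat. The authors deposited UMI counts per gene and nucleus, made with Cell Ranger on Rnor_6.0, and the submitters' notes also name Seurat and DESeq2. For bulk tissue the authors deposited kallisto estimated counts, used here for library totals only, and normalized log2 CPM values per gene after filters on annotation, abundance and variance. Of 14166 bulk genes 13778 were named through RefSeq.

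Of 55863 barcodes, 55401 with at least 500 UMIs and at most 5% mitochondrial UMIs were kept, and 55124 of them also passed the stated filters of the study (300 features, 0.8 log10 genes per UMI, 2% ribosomal UMIs). Oligodendrocyte nuclei held 5 or more UMIs of a set of myelin genes that includes Mbp and Mobp. Some genes of the lists are not reported here. UMIs were summed per rat and class and tested with edgeR 4.0.16 (TMM, filterByExpr, quasi-likelihood, Benjamini-Hochberg over all genes tested), and bulk values with limma 3.58.1 with trend. Alternatives used DESeq2 1.42.0, RLE normalization, no filter, no block, thinning to 1500 UMIs, stricter gates and each rat left out. Leaving out nuclei over 10000 UMIs was chosen after seeing the data. Shares were compared by a two-sided exact permutation test over rats, which cannot fall below 0.333. Exact (Clopper-Pearson) 95% intervals and limits at a count of 0 (3 counts) cover counting error only. Tests were tried on simulated counts with 200 changed genes. Scripts ran in Python 3.11.15, numpy 2.4.6, scipy 1.17.1, pandas 2.3.3 and R 4.3.3.

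Named genes were those of the gate and type, the listed type, peptide, endocannabinoid and reelin genes, and the 10 of smallest p in each direction, with the 4 rats on one side (between classes) or both TBI rats outside both controls (injury). Other named genes, such as those of the receptor, channel and adhesion lists, were chosen after their values were seen. Members and the 25 gene lists were chosen with earlier results of these data known. Righting reflex times of the rats were not used.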

Additional observations from a re-analysis of the deposited data

Results flagged for a closer look

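Without the nuclei over 10000 UMIs, 3 genes had an injury effect in the Adarb2 nuclei that differed from that in the other nuclei passing the Gad1 and Gad2 minimum, by the edgeR interaction test. The difference was -3.04 on the log2 scale for Apoe (SE 0.33, edgeR adjusted p 7.40e-16), an apolipoprotein abundant in astrocytes. It was -8.31 for Stmn1 (SE 1.47, edgeR adjusted p 5.94e-05), a microtubule regulator, and -2.00 for Cst3 (SE 0.45, edgeR adjusted p 0.0232), cystatin C. All 3 were at 0 UMIs in the Adarb2 nuclei of TBI rat 2, where 100% of the entries listed for them were zeros, so the fitted sizes depend on the prior count. Stmn1 held 8, 0, 1 and 43 UMIs in the Adarb2 nuclei of TBI rat 1, TBI rat 2, the sham rat and the naïve rat, and stood at 36.4, 0, 0 and 0 CPM in the comparison nuclei, so its value rests on a class at 0 in 3 of 4 rats, both controls among them. With all Adarb2 nuclei edgeR called 0 genes, with 159 at an unadjusted p under 0.05, and DESeq2 called 0. The cause of the difference was not tested.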

How the results depend on the processing

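The 20 genes named against other GABAergic nuclei and the 20 named against Sst nuclei kept their direction and call in every alternative that tested them, while the counts moved. Against other GABAergic nuclei (209 higher, 206 lower), DESeq2 called 92 and 97, no rat block 44 and 45, and no filter on low counts 294 and 310, and leaving out a rat gave 92 to 285 and 95 to 248. Against Sst nuclei (340 and 195), DESeq2 called 176 and 133, no rat block 122 and 101, no filter 648 and 200, thinning 205 and 159, and leaving out a rat 166 to 317 and 124 to 169. For injury, no filter gave 1 higher (Rps15) and 2 lower (Gfap, Apoe). With nuclei over 10000 UMIs left out, leaving out a rat as well gave 0 to 3 higher and 0 to 20 lower: Apoe lower without TBI rat 1, Tmsb4x higher and Zfand2b lower without TBI rat 2, Cobl, Htr4 and Ski higher and 20 lower without the sham rat, and Cck higher without the naïve rat (Log2FC 2.11, against -0.093 with all 4 rats), named after their values were seen. For the interaction, no filter gave 1 lower (Stmn1), leaving out nuclei over 10000 UMIs 3 lower, and leaving out a rat 0 to 1 higher and 0 to 9 lower (without TBI rat 1, Cck higher and Apoe, Aqp4 and Grin2c lower, and 9 lower without the sham rat). For injury and the interaction, leaving out a rat left 1 rat in a group, which was assumed to vary like the other group. The cause of these moves was not tested. The share of all nuclei kept, lower by -0.194 percentage points in TBI, turned to 0.00823 after thinning and ranged from -0.438 to 0.0511 with a rat left out, the latter without the naïve rat.

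In bulk, a replicate block gave 124 higher and 1 lower against 0 and 0. The correlations of deviations between same-numbered samples were 0.35, 0.17 and -0.030, which are too few to tell whether these samples share more than a number. Leaving out a bulk sample gave 0 to 1 higher and 0 to 1 lower. With a bulk sample left out the difference ranged from -0.20 to 0.25 for Sst, -0.066 to 0.25 for Npas1, -0.20 to 0.019 for Reln and -0.11 to 0.32 for Vip, so their directions turned: all 4 without sham replicate 2, Reln also without TBI replicate 2 and Vip also without TBI replicate 1. With all 6 samples each of these 4 differences was smaller than its standard error. Comparisons between classes of nuclei were paired within each rat. For injury in the nuclei, pairing by replicate number was not possible, because the groups share fewer than 2 replicate numbers.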
